A study of Mus musculus with 6 samples.

Results

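Imprinted domains are stretches of the genome in which genes are expressed from the copy inherited from a single parent. The domains described here comprise 19 genes: H19, Igf2, Kcnq1, Cdkn1c, Phlda2, Snrpn, Ndn, Magel2, Peg3, Peg10, Sgce, Mest, Dlk1, Meg3, Igf2r, Gnas, Nnat, Plagl1 and Grb10. They lie in 13 windows of the mouse genome (build mm9), and every array probe that starts inside a window was taken as a member. This gave 856 of the 174638 probes on the array (0.490%), and the rule uses positions and no measured value. Neighbouring probes with starts at most 1000 bp apart were joined into regions of at least 3 probes, and 38 of 21987 regions had most of their probes in a window.

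The study measured DNA methylation in liver of mouse offspring aged 32 weeks on 6 arrays. The offspring of 3 arrays came from dams whose diet was restricted in the trace element chromium, and those of the other 3 from dams on a control diet. The labels give no strain, sex, litter or start of the maternal diet, so the p-values given here cover the spread between these 6 samples only, and that spread may be technical. The tissue and title labels give liver but the extraction protocol names fat, and the tissue could not be checked against marker genes, since no gene annotation of this build was used. Methylated DNA was enriched with an antibody (methylated DNA immunoprecipitation, MeDIP), labelled with Cy5 and hybridised together with Cy3-labelled input DNA of the same sample. The level of a probe is the log2 ratio of the immunoprecipitated over the input signal, centred on each array's median, so that 0 is the array's middle and not an absence of methylation. MeDIP does not separate the maternal from the paternal copy, and a level also depends on how many CpG sites the fragment holds. Levels are therefore compared between groups at the same place, and levels at different places are given as a description.

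Imprinted expression is set by methylation that the egg or the sperm lays down over a control region and that the embryo keeps on that parental copy while most other gamete methylation is erased. In the H19-Igf2 and Dlk1-Meg3 domains this germline mark is known to come from the sperm, and in the other domains described here from the egg, with Ndn and Magel2 under the control region of Snrpn. The zinc finger protein ZFP57 binds a methylated hexamer, TGCCGC, in such control regions and helps to keep the mark. Many imprinted genes act on growth and metabolism: Igf2 is a fetal growth factor, Igf2r clears it from the cell surface, H19 and Meg3 are long noncoding RNAs, and Grb10 is an adaptor that dampens insulin receptor signalling.

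Promoter sequences show what the antibody could bind near these genes, since it recognises methylated CpG sites. In RefSeq (GRCm38.p6), 14 of the 19 genes had an entry, with 27 promoters of 300 bases each (250 before and 50 after a transcription start), and H19, Kcnq1, Cdkn1c, Peg10 and Sgce had none in the table used. The 6 promoters below are shown as examples that differ in their number of CpG sites and ZFP57 hexamers, and where a gene has several, the CpG-richest is shown. They are written 5′ to 3′ on the gene's own strand with each CpG in capitals. Their coordinates belong to a later build than the array's, so no array level is attached to them.

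Snrpn promoter (GRCm38.p6, chr7:60005150-60005449, minus strand): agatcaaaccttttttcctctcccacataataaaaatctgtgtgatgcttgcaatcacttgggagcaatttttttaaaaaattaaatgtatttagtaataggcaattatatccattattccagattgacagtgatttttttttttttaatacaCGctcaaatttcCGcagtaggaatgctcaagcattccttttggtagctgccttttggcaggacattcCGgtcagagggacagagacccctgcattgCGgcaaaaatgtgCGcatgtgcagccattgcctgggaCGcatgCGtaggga
Meg3 promoter (GRCm38.p6, chr12:109540746-109541045, plus strand): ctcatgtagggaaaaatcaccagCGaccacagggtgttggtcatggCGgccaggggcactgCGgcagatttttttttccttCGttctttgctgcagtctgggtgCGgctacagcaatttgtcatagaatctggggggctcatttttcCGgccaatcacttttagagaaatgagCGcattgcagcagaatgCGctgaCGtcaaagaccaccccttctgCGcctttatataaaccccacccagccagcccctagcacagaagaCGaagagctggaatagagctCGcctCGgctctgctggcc
Mest promoter (GRCm38.p6, chr6:30737800-30738099, plus strand): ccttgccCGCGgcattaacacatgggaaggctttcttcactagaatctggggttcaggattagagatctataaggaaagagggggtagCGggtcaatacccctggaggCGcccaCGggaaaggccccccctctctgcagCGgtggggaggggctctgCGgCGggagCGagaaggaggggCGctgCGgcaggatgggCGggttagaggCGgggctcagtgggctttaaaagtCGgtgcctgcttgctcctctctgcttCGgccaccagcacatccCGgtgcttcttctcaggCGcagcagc
Nnat promoter (GRCm38.p6, chr2:157559828-157560127, plus strand): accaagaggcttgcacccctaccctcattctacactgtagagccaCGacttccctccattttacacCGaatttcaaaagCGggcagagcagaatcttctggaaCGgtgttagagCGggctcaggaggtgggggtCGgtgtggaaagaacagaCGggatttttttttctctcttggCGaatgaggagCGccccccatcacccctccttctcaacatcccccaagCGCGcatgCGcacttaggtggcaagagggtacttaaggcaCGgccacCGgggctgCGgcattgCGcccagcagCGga
Plagl1 promoter (GRCm38.p6, chr10:13090582-13090881, plus strand): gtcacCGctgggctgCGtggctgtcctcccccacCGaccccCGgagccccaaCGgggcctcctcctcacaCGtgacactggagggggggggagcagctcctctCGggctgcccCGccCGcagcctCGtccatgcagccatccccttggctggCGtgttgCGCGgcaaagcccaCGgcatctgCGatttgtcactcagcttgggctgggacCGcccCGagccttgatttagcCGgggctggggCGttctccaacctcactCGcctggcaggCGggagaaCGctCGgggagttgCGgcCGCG
Igf2r promoter (GRCm38.p6, chr17:12769657-12769956, minus strand): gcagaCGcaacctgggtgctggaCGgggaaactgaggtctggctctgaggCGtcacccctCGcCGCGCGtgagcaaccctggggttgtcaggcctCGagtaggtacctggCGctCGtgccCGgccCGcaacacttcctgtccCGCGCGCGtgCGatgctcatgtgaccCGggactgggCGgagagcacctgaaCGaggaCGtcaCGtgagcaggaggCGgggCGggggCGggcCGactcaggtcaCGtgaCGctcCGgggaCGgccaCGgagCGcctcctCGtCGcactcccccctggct

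The printed promoter of Snrpn, a gene for a splicing protein, held 7 CpG sites, the same as the median of 7 over all 32851 promoters in the table, and the other Snrpn promoters held 2, 3 and 4. The printed Meg3 promoter held 13 and the other Meg3 promoter 1. Those of Mest (a hydrolase-like enzyme) and Nnat (a small membrane protein) held 17 each, that of Plagl1 (a zinc finger transcription factor) held 26 and that of Igf2r held 34. Another Mest promoter held 8. The hexamer TGCCGC was searched on both strands, where its other strand reads GCGGCA. It was found once in the printed promoters of Snrpn, Meg3, Nnat and Plagl1, at 2 places in that of Mest and not in that of Igf2r. Among the promoters of the imprinted genes 8 of 27 held it, from 7 genes, and 11.6% of all promoters did. The 8 include 2 Mest promoters whose starts lie 3 bases apart and which therefore share nearly all their sequence. A match describes the letters in this window only and is not a binding site.

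No imprinted region or probe passed the test between the maternal diets after adjustment over the whole array. None of the 38 regions had an adjusted p under 0.05 (limma, Benjamini-Hochberg over 21987 regions), against 0 regions called on the array (0%). None of the 38 had an unadjusted p under 0.05 either, against 0.896% of all regions (0.409% higher and 0.487% lower in chromium-restricted offspring), and the smallest was 0.228. Of the 856 probes, 14 had an unadjusted p under 0.05, against 1.30% of all probes, and none passed after adjustment, as for all probes (0%). The median difference of the 38 regions, chromium-restricted minus control, was 0.017 on the log2 scale, beside 0.0040 over all regions. In size, the median was 0.041, beside 0.048 over all regions. The median half-width of the unadjusted 95% confidence interval of an imprinted region was 0.20. With 3 arrays a group, a difference smaller than the half-width of its own region could not be told from 0 even before adjustment. The adjusted threshold asks for more: differences over all regions spanned -0.50 to 0.49 and none passed. Larger differences than 0.20 could therefore also go undetected.

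The values of the groups overlapped in all 13 window means. The Peg10 window, which holds the retrotransposon-derived placental gene Peg10 and Sgce, encoding a sarcoglycan, had the lowest mean. Its level was -0.81, -0.87 and -0.61 on the chromium-restricted arrays, against -0.95, -0.57 and -0.74 on the control arrays. The group means were -0.76 ± 0.14 in chromium-restricted and -0.76 ± 0.19 in control offspring (SD, n = 3 each), a difference of -0.0054. This value rests on 11 probes of which 5 were well above background on all arrays. At the other end, the window of Grb10 had 0.16, 0.19 and -0.017 on the chromium-restricted arrays, against 0.15, 0.026 and 0.036 on the control arrays. Its means were 0.11 ± 0.11 in chromium-restricted and 0.072 ± 0.072 in control offspring (SD, n = 3 each), so the spread within a group exceeded the difference of 0.038.

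Both windows whose germline mark comes from sperm had means close to 0. The H19-Igf2 window, with 233 probes, averaged -0.081 ± 0.044 in chromium-restricted and -0.070 ± 0.037 in control offspring (SD, n = 3 each). The Dlk1-Meg3 window, named for a membrane protein related to Notch ligands and for a noncoding RNA, averaged -0.042 ± 0.061 in chromium-restricted and -0.019 ± 0.089 in control offspring (SD, n = 3 each; 59 probes). Their differences of -0.010 and -0.023 were smaller than the SD within either group.

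Among the windows marked in the egg, the Gnas window carried the most probes, 318 in all. Gnas encodes the stimulatory G-protein alpha subunit and has several imprinted promoters. The window had -0.29, -0.33 and -0.23 on the chromium-restricted arrays, against -0.36, -0.22 and -0.27 on the control arrays, with means of -0.28 in both and a difference of 0.0023. The Kcnq1 window, which includes the potassium channel gene Kcnq1, the cell cycle inhibitor Cdkn1c and the placental growth regulator Phlda2, averaged 0.049 ± 0.052 in chromium-restricted and 0.029 ± 0.019 in control offspring (SD, n = 3 each). Window means of Igf2r were -0.15 ± 0.056 in chromium-restricted and -0.13 ± 0.081 in control offspring (SD, n = 3 each). The Plagl1 window averaged 0.072 ± 0.079 in chromium-restricted and 0.020 ± 0.082 in control offspring (SD, n = 3 each). In these 4 windows, too, the arrays of the groups were interleaved.

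The remaining egg-marked windows held between 9 and 20 probes each. The Peg3 window, named for a zinc finger protein, averaged -0.10 ± 0.053 in chromium-restricted and -0.12 ± 0.033 in control offspring (SD, n = 3 each). The Mest window averaged -0.16 ± 0.034 in chromium-restricted and -0.18 ± 0.039 in control offspring (SD, n = 3 each). The Nnat window averaged -0.18 ± 0.059 in chromium-restricted and -0.20 ± 0.034 in control offspring (SD, n = 3 each). All 3 differences, 0.017, 0.015 and 0.011, were smaller than the SD within either group. The Ndn-Magel2 window, with 2 genes of the MAGE family that belong to the Prader-Willi domain, averaged -0.17 ± 0.013 in chromium-restricted and -0.15 ± 0.13 in control offspring (SD, n = 3 each). Its control arrays spread from -0.29 to -0.025, and all chromium-restricted arrays lay inside that range.

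The Snrpn window showed the largest difference of the 13 window means. It had -0.045, -0.15 and -0.053 on the chromium-restricted arrays, against -0.14, -0.31 and -0.12 on the control arrays. One chromium-restricted array, the second, lay among the control arrays, so the groups overlap. The means were -0.082 ± 0.057 in chromium-restricted and -0.19 ± 0.10 in control offspring (SD, n = 3 each), a difference of 0.11. Only 2 of its 15 probes were well above background on all arrays. Over the alternative processings the difference ran from 0.0043, when the background was modelled with normexp, to 0.16 with the median over probes.

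Levels along the domains varied far more between regions than between groups. Over the 38 imprinted regions the level, averaged over all 6 arrays, spanned -0.87 to 0.85 with a median of -0.066, beside a median of -0.11 over all regions. The middle of the imprinted levels was narrower than the array's, with quartiles of -0.27 and 0.18 against -0.45 and 0.20. The 10 regions in sperm-marked windows had a median level of -0.0046, and the 28 in egg-marked windows one of -0.10. Within a region single probes also ranged widely, by a median of 3.76 on the log2 scale, beside 3.26 over all regions. Of the imprinted probes 16.7% had a level above 1 and 22.1% one below -1, beside 16.8% and 22.2% of all probes.

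Among region means, the widest range lay inside the Kcnq1 window, which spans 12 regions, the most of any window. The long probe runs of the H19-Igf2 and Gnas windows enter here as 1 region each. Cut into 2000 bp segments, as given below, they ranged more widely, from -1.77 to 0.68 and from -1.18 to 0.73. Kcnq1 region 4 (mm9, chr7:150253979-150255659, 9 probes) had the highest level of all imprinted regions, above 98.9% of the array's regions. It read 0.86, 0.80 and 0.90 on the chromium-restricted arrays, against 0.80, 0.80 and 0.91 on the control arrays. Kcnq1 region 5 (chr7:150280052-150281803, 9 probes) had the lowest level, above 8.67% of the array's regions. It read -0.85, -1.18 and -0.58 on the chromium-restricted arrays, against -1.02, -0.65 and -0.92 on the control arrays. Region 4 was above region 5 on all 6 arrays. Of their 9 probes each, 8 in region 4 and 4 in region 5 were well above background. Their ranks depend on the processing: with only probes well above background region 5 stood at -0.0068 and region 4, at 0.77, was below Ndn-Magel2 region 2 at 0.91. In the authors' deposited table region 5, at -0.68, was above Snrpn region 1 at -1.27. Kcnq1 region 3 (chr7:150237356-150240837), with a level of 0.48, also lay in the top 10% of the array. Along the window the levels of regions 1 to 12 were, in order, -0.51, 0.069, 0.48, 0.85, -0.87, 0.39, -0.16, 0.18, 0.025, -0.28, -0.20 and 0.30. Adjoining regions were thus sometimes far apart, as regions 4 and 5, and sometimes close, as regions 10 and 11. The regions were not assigned to single genes of the domain.

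In the H19-Igf2 window, region 3 (chr7:149865127-149866593, 8 probes) had the highest level. It read 0.38, 0.31 and 0.57 on the chromium-restricted arrays, against 0.40, 0.50 and 0.54 on the control arrays. Region 2 of this window (chr7:149842941-149848010) was lowest, at -0.25, -0.15 and -0.22 on the chromium-restricted arrays, against -0.15, -0.37 and -0.21 on the control arrays. The groups overlap in both. The level of region 2, -0.23, became 0.080 with normexp, 0.062 in the authors' deposited table and -0.060 with only probes well above background. In the Dlk1-Meg3 window the levels ran from -0.39 in region 2 (chr12:110777906-110779505) to 0.31 in region 3 (chr12:110782317-110783933), the next region along. Region 1 of that window was nearly as low as region 2, at -0.38. The level of region 2 became -0.034 with normexp and -0.025 in the authors' deposited table, and stayed at -0.39 with only probes well above background. Region 2 read -0.35, -0.44 and -0.27 on the chromium-restricted arrays, against -0.48, -0.44 and -0.35 on the control arrays. Region 3 read 0.30, 0.25 and 0.44 on the chromium-restricted arrays, against 0.14, 0.34 and 0.36 on the control arrays.

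Windows with 2 regions held a lower and a higher level, and in 3 of them, Snrpn, Mest and Peg3, the order depends on the processing. Grb10 region 1 (chr11:11927485-11929193) had a level of -0.17 and region 2 (chr11:11937080-11938651) one of 0.40. Ndn-Magel2 region 1 (chr7:69491863-69493596) had -0.53 and region 2 (chr7:69520569-69522343) 0.21. Snrpn region 2 (chr7:67149548-67151222) had -0.41 and region 1 (chr7:67118818-67120522) 0.18. At Snrpn 2 of 8 probes in region 2 and 0 of 7 in region 1 were well above background, and the order turned to -0.16 in region 2 and -0.33 in region 1 with normexp and to -0.74 and -1.27 in the authors' deposited table. Mest had -0.41 in region 1 (chr6:30682209-30683748) and 0.045 in region 2 (chr6:30686799-30688485). With only probes well above background the Mest levels were nearly equal, at -0.17 in both regions, and with the median over probes they were -0.18 in region 1 and -0.20 in region 2. In the Igf2r window region 1 (chr17:12932877-12934624) had -0.22 and region 2 (chr17:12962074-12963709) -0.043, and in the Peg3 window region 1 (chr7:6658175-6659863) had -0.19 and region 2 (chr7:6682153-6684230) -0.043. The Peg3 order turned with the median over probes, at 0.14 in region 1 and -0.016 in region 2. The windows of Peg10 (chr6:4696014-4698493), Nnat (chr2:157384549-157386233) and Plagl1 (chr10:12809298-12810983) held 1 region each, with levels of -0.76, -0.19 and 0.046.

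Kcnq1 region 7 (chr7:150481965-150483711, 9 probes of which 8 were well above background) was the region in which the groups did not overlap. It read -0.18, -0.098 and -0.072 on the chromium-restricted arrays, against -0.22, -0.21 and -0.19 on the control arrays. All 3 chromium-restricted arrays were higher, by a mean of 0.090 (SE 0.072, 95% interval -0.074 to 0.25; unadjusted p = 0.241, adjusted p = 1.0, limma). Regions without overlap made up 1 of 38 here and 4.44% of the array (2.49% higher and 1.95% lower), so the share is not above the background. Over 16 alternative processings the difference ran from 0.032, with the median of its 9 probes, to 0.13 with only probes well above background. Its adjusted p passed the threshold under none of them.

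The differences of the 38 regions spanned -0.11 to 0.15, and the largest positive one was in Snrpn region 1. It read 0.35, 0.42 and -0.014 on the chromium-restricted arrays, against 0.40, -0.19 and 0.10 on the control arrays, and the groups overlap widely. The difference was 0.15 (unadjusted p = 0.393, limma), none of the 7 probes was well above background on all arrays, and the arrays of scan 2 alone differed by 0.61. Next came Kcnq1 region 12 (chr7:150734234-150736137), near the end of the window. It read 0.42, 0.32 and 0.30 on the chromium-restricted arrays, against 0.37, 0.12 and 0.27 on the control arrays, a difference of 0.095 (unadjusted p = 0.312, limma).

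The most negative difference was in Ndn-Magel2 region 1, at -0.11 (unadjusted p = 0.244, limma). It read -0.46, -0.72 and -0.60 on the chromium-restricted arrays, against -0.40, -0.52 and -0.52 on the control arrays, and chromium-restricted array 1 lay among the controls. Dlk1-Meg3 region 7 (chr12:110971900-110973589) read -0.12, 0.046 and 0.15 on the chromium-restricted arrays, against -0.049, 0.38 and 0.070 on the control arrays. Its difference of -0.11 (unadjusted p = 0.413, limma) was carried by control array 2, without which it was 0.015. Dlk1-Meg3 region 4 (chr12:110828462-110830210) had the smallest unadjusted p of the imprinted regions, 0.228 (limma), and a difference of -0.10. It read 0.020, 0.077 and 0.15 on the chromium-restricted arrays, against 0.13, 0.28 and 0.15 on the control arrays, and the groups overlap.

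Other regions with small unadjusted p-values were likewise spread over both directions. Igf2r region 1 read -0.30, -0.30 and -0.20 on the chromium-restricted arrays, against -0.22, -0.12 and -0.19 on the control arrays, a difference of -0.087 (unadjusted p = 0.275, limma). The differences of Dlk1-Meg3 region 2, Ndn-Magel2 region 2, Peg3 region 1 and Plagl1 region 1 were 0.071, 0.077, 0.062 and 0.052, and that of H19-Igf2 region 3 was -0.060. Their unadjusted p-values (limma) were between 0.399 and 0.541. In all, 25 of the 38 differences were above 0 and 13 below, beside 11540 and 10447 over the array. By germline mark, 4 of the 10 regions in sperm-marked windows and 21 of the 28 in egg-marked windows were above 0. Regions of 1 window and all regions of 1 array share their samples, so these counts carry no test.

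The order of the arrays by their mean over the imprinted probes can be set beside the brightness of the input channel. The mean level over the 856 probes was -0.15, -0.18 and -0.10 on the chromium-restricted arrays, against -0.19, -0.11 and -0.14 on the control arrays. The median input signal was 53.1, 83.9 and 46.1 on the chromium-restricted arrays, against 98.4, 38.1 and 60.5 on the control arrays. The 2 arrays with the brightest input, chromium-restricted 2 and control 1, had the lowest means, and the 2 with the dimmest input, chromium-restricted 3 and control 2, the highest. The medians over the array's 21987 regions were likewise lowest on the 2 arrays with the brightest input, at -0.14 on both. The median over the 38 imprinted regions had another order, at -0.079, -0.058 and -0.067 on the chromium-restricted arrays, against -0.078, -0.16 and -0.11 on the control arrays, with the lowest value on the array of the dimmest input. The part of input brightness in single differences was looked at only by adding it as a covariate. This left 0 imprinted regions and 0 imprinted probes past the adjusted threshold but gave 40 of the 856 probes an unadjusted p under 0.05. The share of all probes on the array under that fit was not counted. The 40 can therefore not be read as particular to imprinted probes.

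In 2 of the windows the array holds a long unbroken run of probes, which makes up all of the probes in the Gnas window and region 1 of the H19-Igf2 window. The Gnas stretch (mm9, chr2:174100927-174176708), with 318 probes over 75782 bp, is the run with the most probes on the whole array, and the H19-Igf2 stretch (chr7:149758752-149806238), with 212 probes over 47487 bp, comes next. A mean over such a run hides local differences, so all runs of the array were also divided into segments of 2000 bp after the data had been seen, and the fit was repeated over 22992 segments.

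The first 2000 bp of the H19-Igf2 stretch hold mostly probes that start before the window, and that segment was left out. Along the rest of the stretch, levels over 23 segments ran from -1.77 to 0.68. The lowest was segment 22 (chr7:149802967-149804761, 9 probes, 4 of them well above background), whose level exceeded only 1.95% of the array's segments. It read -1.87, -1.94 and -1.68 on the chromium-restricted arrays, against -1.79, -1.64 and -1.67 on the control arrays. Segment 23 next to it (chr7:149804912-149806238) was low as well, at -1.01, and segment 21 before it (chr7:149800861-149802705) stood at -0.63. The highest levels, 0.68 each, lay before that, in the adjoining segments 15 and 16 (chr7:149788909-149792763). Segment 15 read 0.74, 0.70 and 0.80 on the chromium-restricted arrays, against 0.50, 0.58 and 0.79 on the control arrays. Segment 16 read 0.66, 0.68 and 0.79 on the chromium-restricted arrays, against 0.67, 0.68 and 0.61 on the control arrays. Of the 23 segments 4 lay in the top 10% of the array and 2 in the bottom 10%. In none of the 23 did the groups separate, against 4.46% of all segments, and the smallest unadjusted p was 0.117 (limma). Between pairs of arrays the profile over the 23 segments correlated at 0.962 to 0.990, which describes segments that share probe composition and is not a test.

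Along the Gnas stretch, levels over 38 segments ran from -1.18 to 0.73. Segment 10 (chr2:174118986-174120837, 8 probes) was highest, at 0.85, 0.76 and 0.64 on the chromium-restricted arrays, against 0.72, 0.63 and 0.79 on the control arrays. Segment 37 (chr2:174173070-174174974, 10 probes) was lowest, at -1.18, -1.46 and -0.90 on the chromium-restricted arrays, against -1.43, -0.96 and -1.17 on the control arrays. Segments 16 and 17 (chr2:174130956-174134907) were nearly as low, with levels of -1.08 and -1.01. Of their probes, 4 of 9 and 1 of 8 were well above background, against 9 of 10 in segment 37. Levels of segments, in both stretches, were not followed through the alternative processings. Here 6 of 38 segments lay in the bottom 10% of the array and 1 in the top 10%. Pairs of arrays correlated at 0.881 to 0.983 over the 38 segments.

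Gnas segment 15 (chr2:174129057-174130698) was the single imprinted segment of 61 with an unadjusted p under 0.05, against 0.913% of all segments (0.431% higher and 0.483% lower in chromium-restricted offspring). It read -0.21, 0.17 and 0.046 on the chromium-restricted arrays, against 0.19, 0.32 and 0.33 on the control arrays. Every chromium-restricted array was lower than every control array, by a mean of 0.28 (difference -0.28, SE 0.11, 95% interval -0.52 to -0.030; unadjusted p = 0.0323, adjusted p = 1.0, limma), and it did not pass the test. Within the 3 scans the difference was -0.40, -0.15 and -0.28. The segment holds 5 probes, 3 of them well above background. With the background modelled with normexp the difference was -0.088, and without chromium-restricted array 1 it was -0.17 with an unadjusted p of 0.122 (limma). The groups also did not overlap in Gnas segments 7, 16 and 22, with differences of 0.080, -0.099 and -0.087, which makes 4 of 61 imprinted segments, 1 higher and 3 lower, beside 2.50% and 1.96% of all segments.

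Single probes gave the same picture. Of the 14 probes with an unadjusted p under 0.05, 9 were higher and 5 lower in chromium-restricted offspring, beside 0.685% and 0.612% of all probes. The Gnas window held 8 of them and the H19-Igf2 window 2, and the windows of Kcnq1, Snrpn, Ndn-Magel2 and Igf2r held 1 each. Only 3 of the 14 were well above background on all arrays. The smallest unadjusted p, 0.0013 (limma), belonged to a dim probe in the H19-Igf2 window (chr7:149847951-149848010). It read -0.77, -0.20 and -0.51 on the chromium-restricted arrays, against -1.49, -1.44 and -1.35 on the control arrays. The groups are far apart at this probe, but its adjusted p was 1.0, and the region around it differed by 0.040. Among the bright probes, one in the Kcnq1 window (chr7:150239848-150239892) read 1.08, 1.65 and 1.19 on the chromium-restricted arrays, against 0.80, 0.65 and 0.73 on the control arrays (unadjusted p = 0.017, adjusted p = 1.0, limma). A bright Gnas probe (chr2:174101579-174101623) went the other way, at -0.29, 0.046 and -0.72 on the chromium-restricted arrays, against 0.37, 0.27 and 0.29 on the control arrays (unadjusted p = 0.020, adjusted p = 1.0, limma). Groups did not overlap at 37 of the 856 probes, 19 higher and 18 lower in chromium-restricted offspring, beside 4.27% of all probes (2.13% higher and 2.14% lower).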

How the data were processed

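The 6 arrays are 2-colour Agilent scans read with Feature Extraction 11.0.1.1, per the file headers. Per the labels, the immunoprecipitated DNA carried Cy5 (red) and the input Cy3 (green) on every array, without a dye swap. The deposited processed signals are intensity values with a local background subtracted and a linear dye factor per channel, per the file headers (5.00 to 11.6 for the input, 3.79 to 5.50 for the immunoprecipitated channel). The authors' deposited table holds normalized ratios, taken here as log2 values and used as an alternative; its method, centring and log base are not given in the sources used here.

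From the scanner files the log2 ratio of red over green was computed and centred on each array's median over probes without flags, with no loess or quantile step. Centring removes any change shared by all probes. Control spots (5827 per array) did not enter, nor did 360 probes with outlier flags, none of them in an imprinted window, and saturated spots (0 to 5 per array) were kept. Region values are means over probes. Probes are 45 to 60 bases long with a median spacing of 209 bp. Of the 856 imprinted probes, 70.7% were well above background (the scanner software's call, required in both channels on every array), beside 67.5% of all probes. In 8 of 38 imprinted regions the probes well above background did not outnumber the other probes, beside 5451 of 21987 regions. Of the 856 probes 2 lay in no imprinted region, because the region they fall in has most of its probes outside the Peg3 window.

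All regions and probes of the array entered a limma 3.58.1 fit (lmFit, then eBayes) with group as its single term under R 4.3.3, and p-values were adjusted over the whole array (Benjamini-Hochberg, 0.05). The fit was tested on simulated data, with shifts larger than any difference of the imprinted regions. That test therefore does not bear on differences of the size seen here. Window means and levels got no test. Precision is limited by the number of arrays. The imprinted windows, the lists and the tests were chosen with earlier results of these data known. Named are the highest and lowest region of each window, the 12 regions with the smallest unadjusted p, the 3 highest and 3 lowest differences, and any region or probe past the threshold. The segments and single probes named were chosen after their values were seen.

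Arrays with the same replicate number shared a scan. Their deviations from the group means over all regions correlated at 0.145, -0.591 and 0.197 for numbers 1, 2 and 3. The labels give no other pairing, and these values cannot show whether a litter or a preparation batch pairs the numbers. On the slides, position 2 held each chromium-restricted array and position 4 each control array, and the position and the group cannot be told apart. Alternatives were normexp background correction, the authors' table, only bright probes, flagged probes kept, the median over probes, other rules for joining probes, a replicate block, eBayes with trend and robust set, input signal as a covariate and leaving out each array. Normexp used the median spot signals, since the scanner files hold no mean signals. Gene coordinates of a later build were not converted, and promoter sequences are from RefSeq.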

Additional observations from a re-analysis of the deposited data

How the results depend on the processing

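No imprinted region and no imprinted probe passed the adjusted threshold under any of the 17 alternatives for regions or the 13 for probes. The counts below that threshold moved. Imprinted regions whose groups do not overlap numbered 1, against 3 with normexp and 3 with the authors' table. They numbered 3 with only bright probes (well above background) and 2 with the median over probes. The 2 kb setting counts segments in place of regions. It gave 5 without overlap, against 4.46% of all segments, and 1 with an unadjusted p under 0.05, against 0.913%. Apart from the 2 kb segments, shares over the whole array were not counted under the alternatives of this paragraph. Leaving out an array gave 1 to 6 regions without overlap, 6 of them without chromium-restricted array 3 and 5 when control array 1 was left out. Leaving out an array can only keep or add regions or windows without overlap, since fewer arrays then have to separate. Probes with an unadjusted p under 0.05 numbered 14, against 3 with normexp, 9 with the authors' table, 5 with only bright probes and 40 with input signal as a covariate. Leaving out an array gave 8 to 27 such probes, 27 of them without chromium-restricted array 2 and 23 when control array 1 was left out. Tiled segments at that level numbered 1, against 0 with normexp, 0 with the authors' table and 3 with the covariate, and 0 to 2 without an array. Windows whose groups do not overlap numbered 0, against 2 with normexp, 1 with only bright probes and 0 to 3 without an array, 3 without chromium-restricted array 2. The median level of imprinted regions, -0.066, became 0.11 with normexp, 0.053 with the authors' table, 0.21 with only bright probes and -0.012 with the median over probes, and -0.086 to -0.053 without an array. Of 240 values of region levels under alternatives, 66 moved by more than the spread between arrays. For Peg10 region 1 the level went to 0.088 with only bright probes, and for Snrpn region 1 to -1.27 in the authors' table. The cause of these shifts was not tested, and only the count with bright probes is over fewer probes by construction.

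With the replicate number as a block, which is also a scan block, 0 imprinted regions and 0 probes passed after adjustment, as without it. The counts with an unadjusted p under 0.05, 14 probes and 1 tiled segment, were also the same. Whether the 14 were the same probes was not compared, and shares over the whole array under the block were not counted.

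Of 191 differences of the 12 named regions under alternatives, 183 kept their direction. The other 8 turned. With normexp Snrpn region 1 was at -0.020 and Peg3 region 1 at -0.0063. With only bright probes Ndn-Magel2 region 1 was at 0.040, Peg3 region 1 at -0.059 and Dlk1-Meg3 region 7 at 0.039. With the median over probes Ndn-Magel2 region 2 was at -0.026. Leaving out an array put Ndn-Magel2 region 2 at -0.040 to 0.16 and Dlk1-Meg3 region 7 at -0.20 to 0.015, and both turned without control array 2. Apart from these regions, 2 of the named segments turned with the median over probes, Gnas segment 16 to 0.023 and Gnas segment 22 to 0.077. Signal over background limits the Snrpn window most, where 2 of 15 probes were well above background.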
